A study of Mus musculus with 9 samples.

Results

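Neurofilaments are the intermediate filaments of nerve cells, and the 5 genes described here encode their subunits: Nefl, Nefm and Nefh, the light, medium and heavy chains, Ina, which encodes alpha-internexin, and Prph, which encodes peripherin. They were chosen by gene symbol, with earlier results of these data known, and make up 5 of the 23997 gene symbols in the expression tables. All 5 were found in all 9 libraries and all 5 passed the filter on low values, a mean of at least 0.5 scaled FPKM. The study isolated retinal ganglion cells (RGCs), the neurons whose axons form the optic nerve, from C57BL/6J mice by immunopanning, in which cells are removed or kept by antibodies bound to a dish. In the Control group the anterior chamber of the eye had received saline, and in the other groups it had received microbeads, which hold back the outflow of fluid and raise the intraocular pressure (IOP). Injected eyes were sorted by their mean rise in pressure over 2 weeks into Mild IOP and Moderate IOP, and the mice were 8 weeks old per the labels. Per the methods, RNA from 12 Control, 12 Mild IOP and 6 Moderate IOP retinas was combined into 1 pool per group and each pool was split into 3 libraries. The 3 libraries of a group are therefore technical replicates, all p-values cover the spread between libraries of a pool, and differences between animals were not measured.

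Neurofilaments fill the axon, set its calibre and are among the most abundant proteins of large projection neurons, RGCs included. Nefl can form the core of the filament, Nefm and Nefh add long tails that extend from it and are phosphorylated at repeated lysine-serine-proline sites, and alpha-internexin joins them in central neurons. Peripherin is best known from peripheral and injured neurons, and after axonal injury neurofilament transcripts are generally known to change in abundance.

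The 5 genes lie on 4 chromosomes of the mm10 assembly. Nefl (chr14:68083884-68087737, forward strand, 4 exons) and Nefm (chr14:68119545-68125004, reverse strand, 3 exons) are neighbours, 31.8 kb apart. Nefh lies at chr11:4938756-4948064 on the reverse strand with 4 exons, Ina at chr19:47014698-47024346 on the forward strand with 3 exons, and Prph at chr15:99055174-99058978 on the forward strand with 8 exons. The GENCODE coding sequences encode 543 residues for Nefl, 848 for Nefm, 1090 for Nefh, 501 for Ina and 507 for Prph. The 5 share the alpha-helical rod of the intermediate filament family. No stretch of 100 bases was identical between the transcripts used for 2 members, so a read of that length can be told apart between them.

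The heavy chain is set apart by its tail. Nefh carries 51 lysine-serine-proline codon triplets, Nefm carries 4, and Nefl, Ina and Prph carry 0. A 120-base stretch of the tail in exon 4 of Nefh, at chr11:4940938-4941057 on the reverse strand, is shown with its 7 lysine-serine-proline codon triplets in capitals because this repeat bears on how well reads of Nefh can be placed.
Nefh tail: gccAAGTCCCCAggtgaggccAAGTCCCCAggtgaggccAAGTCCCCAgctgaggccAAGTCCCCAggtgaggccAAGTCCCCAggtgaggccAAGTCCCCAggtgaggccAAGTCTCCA
Within the Nefh transcript 9.03% of all 30-base words occur more than once, and 44 of its 3895 words of 100 bases do. No word of either length recurs within the other 4 transcripts. Nefl shares 1009 of its 3281 words of 100 bases with Nefm-202, a longer GENCODE transcript of Nefm that runs through Nefl on the opposite strand and that the deposited Nefm locus does not cover. Ina shares 357 of its 3141 words with Nt5c2, whose deposited locus at chr19:46886831-47015189 overlaps the start of Ina. The library kit does not mark strand, so reads from these overlaps cannot be told apart by strand, and values of Nefl and Ina hold this uncertainty. Nt5c2, a nucleotidase gene, measured 23.1 ± 4.82 scaled FPKM in Control and 21.0 ± 2.75 in Moderate IOP (SD, n = 3 libraries), with an FDR of 0.8 by limma.

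Values are FPKM, fragments scaled to transcript length and to the mapped fragments of the library, as the authors estimated them. They were divided here by a median-of-ratios factor for each library, which lay between 0.983 and 1.06, and are called scaled FPKM. Depth derived from the confidence bounds was 4840000 to 8790000 fragments per library. The most abundant symbol held 20.5% of the summed FPKM in Mild IOP replicate 2 and 1.87 to 9.14% in the other libraries. Every group held RGC markers, with a summed level of 1242 to 1349 scaled FPKM over 10 markers in Control, 830.3 to 1081 after Mild IOP and 1884 to 2028 after Moderate IOP. Most of these sums came from 1 marker, Sncg, which averaged 911, 641 and 1389 scaled FPKM in the same order. Amacrine cell markers, the genes of the retinal interneurons that the panning was meant to remove, summed to 1369 to 1421, 1424 to 1606 and 974.5 to 1138 in the same order. In pooled cells, fewer cells of a type and less RNA per cell cannot be told apart. The transcripts of microglia and astrocytes were low, at 2.69 to 9.06 scaled FPKM summed over the 5 markers of either list, and the endothelial markers Cldn5 and Cdh5 were at 0 in all 9 libraries.

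The neurofilament genes did not move as 1 block. Nefl rose 1.57-fold in Moderate IOP against Control, Nefm was 1.41-fold higher but missed the threshold, and Ina was 1.04-fold its Control level, with no call. In Mild IOP, 0 of the 5 genes were DEGs, defined by an FDR below 0.1 in a limma fit over 13043 genes, where 0.399% of all genes were DEGs. Between Moderate IOP and Control 1 of 5 was a DEG (Nefl), against 1.84% of all genes. Between Moderate IOP and Mild IOP 2 of 5 were DEGs (Nefl and Nefm), against 10.2% of all genes. With a fold-change of at least 1.5 required as well, 0, 1 (Nefl) and 1 (Nefm) of the 5 passed in these comparisons, against 0.391, 1.69 and 8.14% of all genes, since Nefl was 1.44-fold higher in Moderate IOP than in Mild IOP. Over the 5 genes the median of the Log2 fold-changes was -0.04 for Mild IOP against Control, 0.50 for Moderate IOP against Control and 0.41 for Moderate IOP against Mild IOP, beside medians over all tested genes of 0.006, 0.004 and -0.016. Mild IOP and Moderate IOP were compared with the same Control libraries, and these comparisons are therefore not independent of each other. All Log2 fold-changes are on the scale of log2(scaled FPKM + 1), which understates the change of low genes such as Prph.

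**Figure D1:**
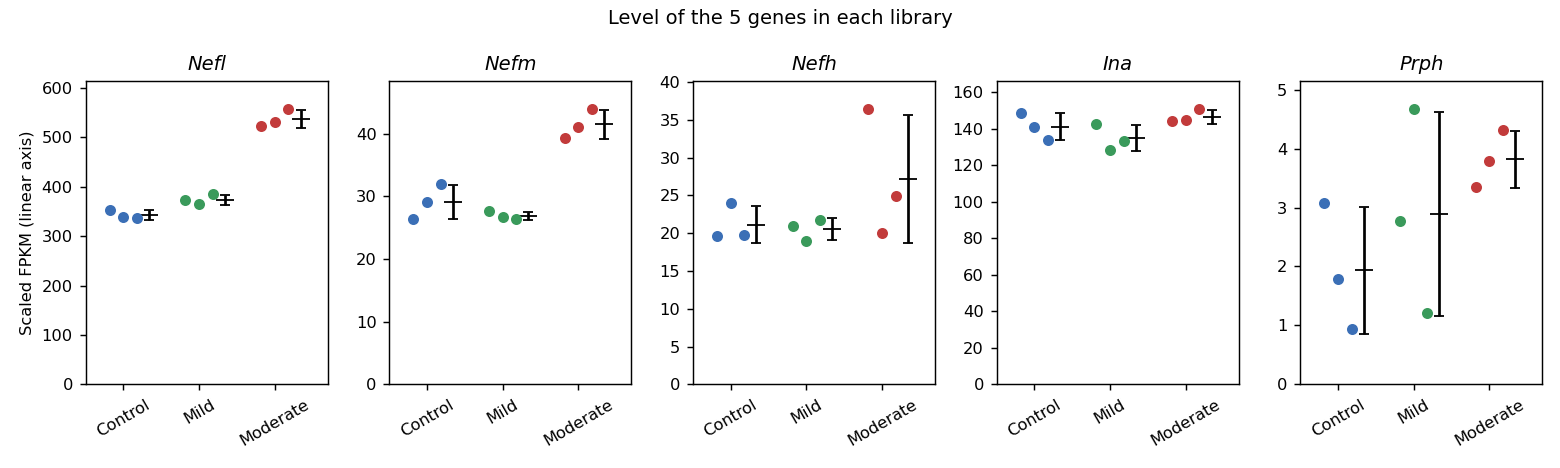
Scaled FPKM (linear axes from 0, each gene on its own scale) of the 5 genes in the 3 libraries of Control, Mild IOP and Moderate IOP; dots are libraries and the black bars are mean ± SD (n = 3). For Nefl and Nefm all 3 Moderate IOP libraries lie above the other 6, at 523 to 558 for Nefl and 39.4 to 44.0 for Nefm.

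The order of the levels was the same in every group. Nefl stood first, followed by Ina, Nefm, Nefh and Prph, and between neighbours in this order the libraries did not overlap within any group. FPKM are already per kilobase of transcript, so transcript length does not set this order. The limits on placing reads given above for Nefl, Ina and Nefh are not removed by this. Averaged over the 9 libraries, Nefl measured 418 scaled FPKM and ranked 186 of 13043 tested genes, Ina 141 (rank 739), Nefm 32.5 (rank 2841), Nefh 22.9 (rank 3708) and Prph 2.88 (rank 9633).

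Nefl encodes the light chain on which the other chains assemble. Its level was 353, 338 and 337 scaled FPKM in Control libraries 1, 2 and 3, 372, 365 and 385 with Mild IOP, and 523, 530.2 and 558 with Moderate IOP. The 3 groups formed 3 separate ranges in ascending order from Control to Moderate IOP. The means were 343 ± 9.41, 374 ± 10.1 and 537 ± 18.2 (SD, n = 3). Nefl rose in Moderate IOP against Control with a Log2 fold-change of 0.65 (SE 0.09, 95% interval 0.44 to 0.85, FDR = 0.012 by limma). Against Mild IOP it was higher by 0.52 on the Log2 scale (SE 0.09, 95% interval 0.32 to 0.73, FDR = 0.012 by limma), but at -0.09 (FDR = 0.54) when libraries were scaled by the RGC markers instead of all genes. In Mild IOP against Control the difference was 0.13 (95% interval -0.08 to 0.33, FDR = 0.72 by limma), although all 3 Mild IOP libraries stood above all 3 Control libraries. Such a separation upward was seen in 7.94% of all genes in this comparison. The authors' confidence bounds were 2.16 to 3.51% to either side of each Nefl value. From these bounds 3244 to 8555 fragments were derived behind each value, a derivation that is too low for abundant genes.

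Nefm encodes the medium chain. It measured 26.4, 29.0 and 31.9 scaled FPKM in the Control libraries, 27.6, 26.7 and 26.4 with Mild IOP and 39.4, 41.1 and 44.0 with Moderate IOP. The Moderate IOP libraries stood above all others, while Control and Mild IOP overlapped. The group means were 29.1 ± 2.78, 26.9 ± 0.667 and 41.5 ± 2.35 (SD, n = 3). Nefm was higher in Moderate IOP than in Mild IOP by 0.61 on the Log2 scale (1.52-fold, SE 0.13, FDR = 0.024 by limma), a difference that was 0.01 (FDR = 0.95) with scaling by the RGC markers. Against Control the Log2 fold-change was 0.50 (SE 0.13, 95% interval 0.21 to 0.79) with an unadjusted p of 0.0027 and an FDR of 0.11 by limma. It passed the threshold without Control replicate 3, at 0.57 (FDR = 0.097), and with either other filter on low values. Mild IOP against Control gave -0.11 (95% interval -0.39 to 0.18, FDR = 0.85 by limma).

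Nefh encodes the heavy chain, whose repeated tail is printed above. The Control libraries had 19.6, 24.0 and 19.8 scaled FPKM, the Mild IOP libraries 21.0, 19.0 and 21.7, and the Moderate IOP libraries 36.5, 20.0 and 25.0. Moderate IOP replicate 1 stood above all other libraries, and the other two Moderate IOP libraries lay near the Control range. The means were 21.1 ± 2.49, 20.5 ± 1.41 and 27.2 ± 8.44 (SD, n = 3). The Log2 fold-change in Moderate IOP against Control was 0.31 (SE 0.20, 95% interval -0.14 to 0.76, FDR = 0.51 by limma), and 0.08 (FDR = 0.87) without Moderate IOP replicate 1. Between Moderate IOP and Mild IOP it was 0.35 (95% interval -0.10 to 0.80, FDR = 0.36 by limma), and between Mild IOP and Control -0.04 (95% interval -0.49 to 0.41, FDR = 0.97 by limma). The intervals include both no difference and, for Moderate IOP, a rise as large as that of Nefl.

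Ina encodes alpha-internexin, the chain that co-assembles with the neurofilament triplet in central neurons. Control libraries measured 149, 141 and 134 scaled FPKM, Mild IOP libraries 143, 128 and 133, and Moderate IOP libraries 144, 145 and 151. The 3 ranges lay close together, with the Moderate IOP libraries inside or just above the Control range. The means were 141 ± 7.30, 135 ± 7.18 and 147 ± 3.85 (SD, n = 3). The Log2 fold-change was 0.06 in Moderate IOP against Control (SE 0.10, 95% interval -0.17 to 0.28, FDR = 0.84 by limma) and -0.07 in Mild IOP against Control (95% interval -0.29 to 0.16, FDR = 0.89 by limma). Moderate IOP against Mild IOP gave 0.12 (95% interval -0.11 to 0.35, FDR = 0.54 by limma), and -0.48 (FDR = 0.0072) with scaling by the RGC markers. With that scaling the median over all genes was -0.52 in the same comparison. A change of 1.5-fold in either direction lies outside the 95% intervals of all 3 comparisons in the limma fit.

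Prph encodes peripherin and was the least abundant of the 5. It measured 3.08, 1.78 and 0.936 scaled FPKM in Control, 2.78, 4.68 and 1.22 with Mild IOP and 3.35, 3.78 and 4.32 with Moderate IOP. The Mild IOP and Control libraries overlapped over most of their ranges, and the Moderate IOP libraries lay above all 3 Control libraries. The means were 1.93 ± 1.08, 2.89 ± 1.73 and 3.82 ± 0.482 (SD, n = 3). The Log2 fold-change was 0.78 in Moderate IOP against Control (SE 0.37, 95% interval -0.04 to 1.59, FDR = 0.35 by limma), 0.37 in Mild IOP against Control (FDR = 0.81) and 0.41 in Moderate IOP against Mild IOP (FDR = 0.57). Leaving out 1 library at a time gave 0.51 to 1.05, 0.05 to 0.72 and 0.05 to 0.73 in the same order, so the size of each difference rested on single libraries. Only 5.69 to 50.9 fragments stood behind each value, and the authors' bounds reached 28.0 to 83.8% to either side.

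**Figure D2:**
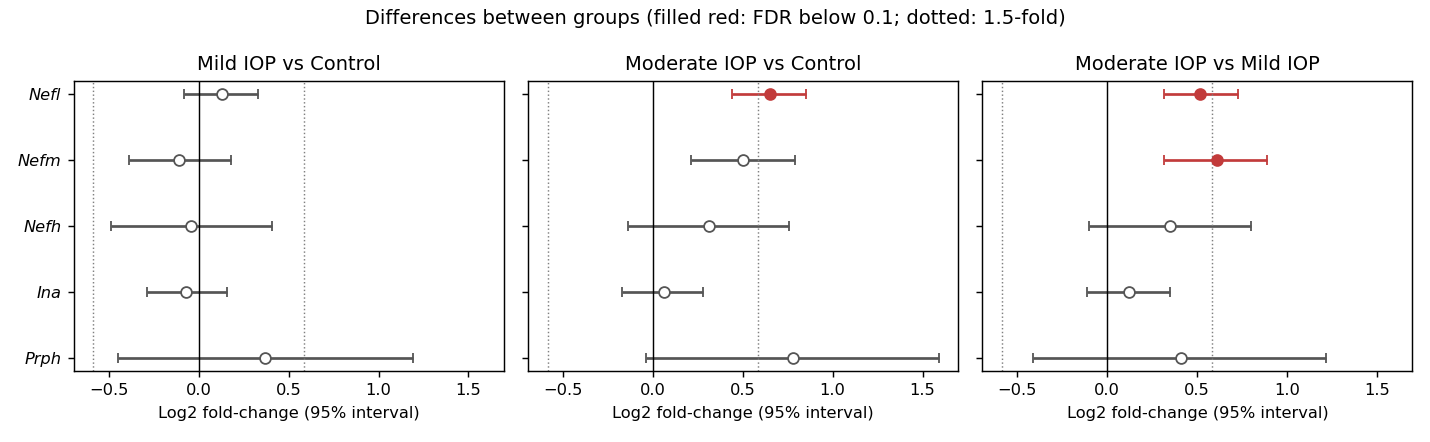
Log2 fold-change on the log2(scaled FPKM + 1) scale (x axis) of each gene (y axis) in the 3 comparisons, as estimate and 95% interval from the limma fit; filled red points have an FDR below 0.1 and dotted lines mark 1.5-fold. Nefl is red in both Moderate IOP panels and Nefm only against Mild IOP, where with scaling by the RGC markers neither passes (-0.09 and 0.01).

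Counted by separation of the libraries, 3 of the 5 genes (Nefl, Nefm and Prph) had all Moderate IOP libraries above all Control libraries, against 9.95% of all genes. For Moderate IOP over Mild IOP the count was 3 (Nefl, Nefm and Ina), against 14.5% of all genes. None of the 5 had all libraries lower than those of the other group in any of the 3 comparisons, against 9.13, 9.48 and 13.0% of all genes. Each of the 5 had a positive Log2 fold-change in both comparisons of Moderate IOP, against 50.5% of all genes over Control and 48.4% over Mild IOP, but with scaling by the RGC markers Nefh (-0.02) and Ina (-0.29) were negative over Control, and Nefl, Nefh, Ina and Prph over Mild IOP.

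Because the scaling factor cancels within a library, the genes were next compared as percentages of Nefl in the same library. Ina amounted to 42.0, 41.7 and 39.8% of Nefl in Control, 38.3, 35.2 and 34.7% with Mild IOP, and 27.5, 27.3 and 27.1% with Moderate IOP. The 3 groups did not overlap, and the step from Mild IOP to Moderate IOP was larger than that from Control to Mild IOP. The means were 41.2 ± 1.22, 36.1 ± 1.96 and 27.3 ± 0.224% (SD, n = 3), a Log2 difference of -0.59 between Moderate IOP and Control and -0.19 between Mild IOP and Control. The 3 groups differed with an exact permutation p of 0.0036, the smallest that 280 ways of forming 3 groups of 3 allow, or 0.014 after adjustment over 4 ratios. This ratio stayed past 0.05 without any 1 of the 9 libraries. With labels exchanged only within a replicate number the exact permutation p adjusted over the 4 ratios was 0.11, which is the smallest value that this scheme can give for a single ratio out of 4.

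Nefm amounted to 8.51 ± 1.01% of Nefl in Control, 7.20 ± 0.306% with Mild IOP and 7.72 ± 0.187% with Moderate IOP (SD, n = 3 libraries; exact permutation p = 0.082, adjusted 0.16). Its Log2 difference from Control was -0.24 with Mild IOP and -0.13 with Moderate IOP. Without Control replicate 1 the adjusted p was 0.014, with a Log2 difference of -0.23 between Moderate IOP and Control. This was the only 1 of the 9 tests without 1 library to pass, and over 12 alternatives the adjusted permutation p reached 0.29. Nefh amounted to 6.18 ± 0.823, 5.49 ± 0.251 and 5.07 ± 1.68% (exact permutation p = 0.38, adjusted 0.5), and without Moderate IOP replicate 1 the Log2 difference went from -0.33 to -0.58 with an adjusted p of 0.021. Here too only 1 of the 9 tests without 1 library passed, and over 12 alternatives the adjusted permutation p reached 0.8. Prph amounted to 0.559 ± 0.298, 0.781 ± 0.484 and 0.709 ± 0.0666% (exact permutation p = 0.71, adjusted 0.71).

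**Figure D3:**
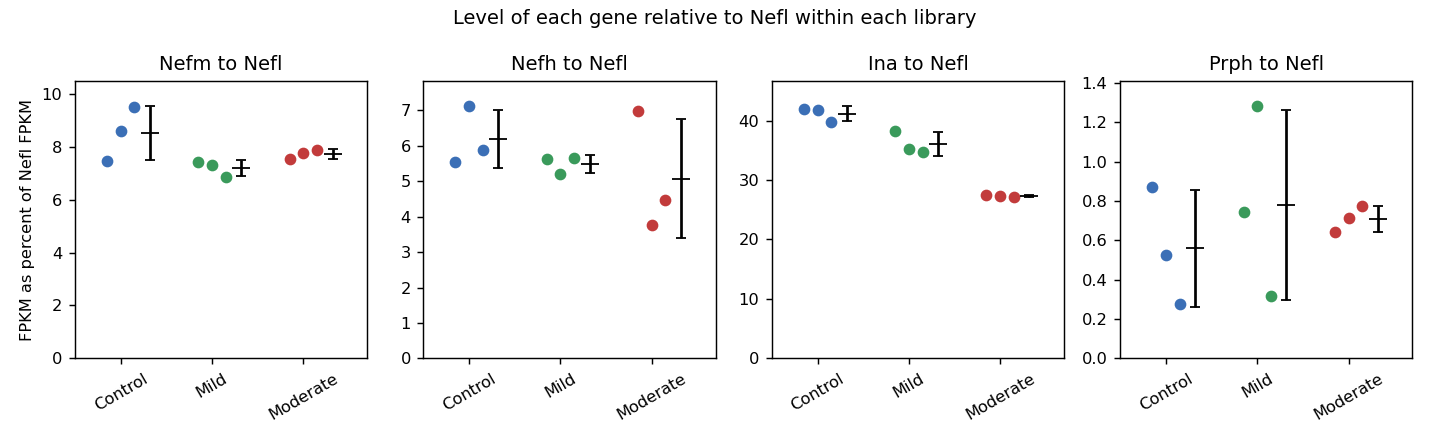
FPKM of Nefm, Nefh, Ina and Prph as a percentage of the Nefl FPKM of the same library (linear axes from 0) in Control, Mild IOP and Moderate IOP; dots are libraries and black bars are mean ± SD (n = 3). Ina stands at 41.2% of Nefl in Control, at 36.1% with Mild IOP and at 27.3% with Moderate IOP, and the groups do not overlap.

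Summed over the 5 genes, the level was 536 ± 14.1 scaled FPKM in Control, 559 ± 13.4 with Mild IOP and 756 ± 22.7 with Moderate IOP (SD, n = 3). Nefl supplied 63.9% of this sum in Control, 66.9% with Mild IOP and 71.0% with Moderate IOP. The share of Ina was 26.3% in Control, 24.1% with Mild IOP and 19.4% with Moderate IOP. Nefm supplied between 4.65 and 6.10% and Nefh between 2.71 and 4.89% in any library, and Prph less than either.

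The genes whose levels ran most like each member were sought by Pearson's r over the 9 libraries on the log2 scale. These libraries come from 3 pools, so that r mostly reflects 3 group levels and is given as a description. Nefl ran closest to Calm3, a calmodulin gene (r = 0.978, mean levels of 158, 171 and 283 scaled FPKM over Control, Mild IOP and Moderate IOP), followed by Ly6c2, Raly, Slc4a8 and Cebpd, and 66 of 13038 other genes exceeded 0.9. Nefm ran closest to Pcsk1n (r = 0.986, with 88.0, 82.1 and 138), Hist1h4c, Basp1 and Ctif, and 80 genes exceeded 0.9. Basp1, which encodes a growth cone membrane protein, measured 316, 289 and 499 scaled FPKM (r = 0.967). Only 14 genes exceeded 0.9 with Ina, led by Gtf3c6 (r = 0.951), 7 with Prph, led by Apoa1 (r = 0.952), and 5 with Nefh, led by Fam98c (r = 0.937). Among the members themselves Nefl and Nefm had the highest r, at 0.89, and the other 9 pairs lay between 0.13 and 0.57.

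Genes that work with neurofilaments were examined as lists. In Moderate IOP against Control 1.84% of all genes were called in either direction. Among 16 other proteins of the axonal cytoskeleton, 3 rose and 0 fell there, with a median Log2 fold-change of 0.28. They were Actb, which encodes beta-actin (414 ± 51.3 to 761 ± 70.1 scaled FPKM, FDR = 0.023 by limma), Map1a, a microtubule-associated protein (7.66 ± 1.66 to 14.2 ± 0.246, FDR = 0.068), and Stmn2, a tubulin-binding protein of growing axons (145 ± 17.1 to 225 ± 21.6, FDR = 0.064; SD, n = 3). In Moderate IOP against Mild IOP 10.2% of all genes were called, and with scaling by the RGC markers the median over all genes was -0.52. In that comparison, scaled over all genes, 8 of the 16 were higher and 1 was lower, with a median of 0.50. Those higher included Tubb3, the neuronal beta-tubulin (0.57, FDR = 0.055 by limma), Mapt, which encodes tau (0.52, FDR = 0.024), and Gap43, a growth cone protein (0.59, FDR = 0.029), and the lower one was Sptbn4, a spectrin of the axon initial segment (-0.76, FDR = 0.079). In Mild IOP against Control none of the 16 passed.

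The genes that modify, carry or anchor neurofilaments gave few calls. Of 20 kinases and phosphatases known to act on neurofilaments, 0 passed in either comparison with Control. Ppp2r1a and Ppp2ca, subunits of protein phosphatase 2A and the most abundant of the list, had Log2 fold-changes of -0.02 and 0.08 in Moderate IOP against Control (FDR = 0.95 and 0.8 by limma). Of 9 subunits of the motors that carry filaments along the axon and of 5 tested plakins, which link filaments to other parts of the cytoskeleton, 0 passed in any comparison. Klc1, a kinesin light chain and the most abundant of the motor subunits, measured 527 ± 60.3 scaled FPKM in Control and 480 ± 20.4 in Moderate IOP (SD, n = 3, FDR = 0.61 by limma).

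Of 10 genes for filament turnover and chaperones, Cryab, a small heat shock protein also abundant in lens, fell in Mild IOP against Control from 26.3 ± 4.96 to 4.31 ± 0.884 scaled FPKM (SD, n = 3, FDR = 0.013 by limma). Between Mild IOP and Moderate IOP, Cryab (1.38, FDR = 0.029 by limma), Hspb1 (0.99, FDR = 0.088) and Hspb8 (0.91, FDR = 0.083), all small heat shock proteins, were higher in Moderate IOP on the Log2 scale. They made up 3 of the 10, against 10.2% of all genes called in either direction. In Moderate IOP against Control 0 of the 10 passed. There Cryab was at -0.98 (13.7 ± 5.96 scaled FPKM in Moderate IOP, FDR = 0.18 by limma), Hspb1 at 0.50 (FDR = 0.47) and Hspb8 at 0.95 (FDR = 0.15). Among 6 proteins that bind neurofilament mRNA, Sod1, an antioxidant enzyme known for this binding in mutant form, was higher in Moderate IOP than in Mild IOP (0.97, FDR = 0.019 by limma), and 0 passed against Control. Of 9 other intermediate filament genes tested, which include the nuclear lamins, Krt8 and Krt18, the keratin pair of simple epithelia, fell in Moderate IOP against Control. They made up 2 of the 9, against 1.84% of all genes called in either direction. Krt18 went from 7.68 ± 3.13 to 0.387 ± 0.263 scaled FPKM (SD, n = 3, FDR = 0.0038 by limma), and Krt8 was listed at 0 in all 3 Moderate IOP libraries (FDR = 0.024).

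**Figure D4:**
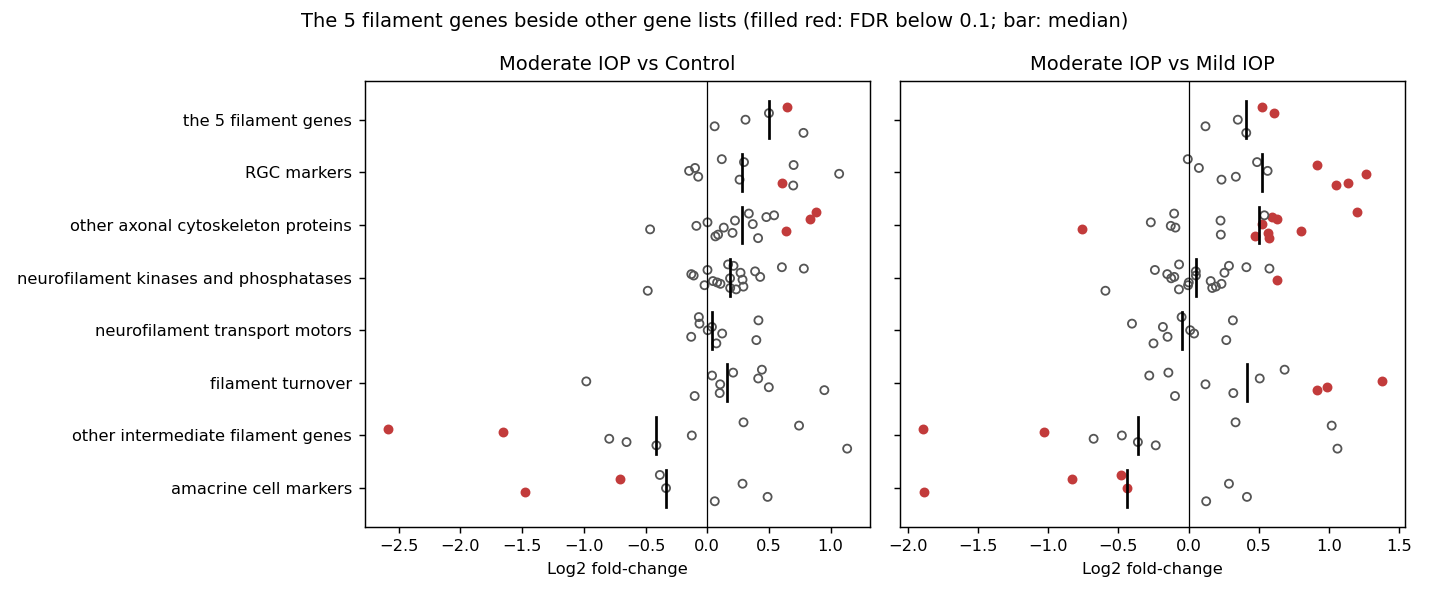
Log2 fold-change on the log2(scaled FPKM + 1) scale (x axis) of each tested gene in the neurofilament genes and 7 other lists (y axis), in Moderate IOP against Control (left) and against Mild IOP (right); filled red points have an FDR below 0.1 and black bars are list medians. The median of the 5 filament genes is 0.50 over Control and 0.41 over Mild IOP, beside 0.28 and 0.52 for the RGC markers and -0.33 and -0.44 for the amacrine cell markers.

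Of 10 RGC markers, 1 rose in Moderate IOP against Control, namely Sncg (911 ± 49.6 to 1389 ± 34.1 scaled FPKM, SD, n = 3, FDR = 0.071 by limma). Higher in Moderate IOP than in Mild IOP were 4 (Rbpms, Thy1, Sncg and Pou4f1). Of all genes, 1.84% and 10.2% were called in these comparisons in either direction. Log2 fold-changes were above 0 for 7 of the 10 over Control and for 9 over Mild IOP. On the Log2 scale the median of the 10 was -0.20 for Mild IOP against Control, 0.28 for Moderate IOP against Control and 0.52 for Moderate IOP against Mild IOP. Of 7 tested amacrine cell markers, 2 (Gad2 and Slc6a9) fell in Moderate IOP against Control, and 4 were lower in Moderate IOP than in Mild IOP. The other 3 of the 7 had Log2 fold-changes above 0 in both comparisons, without passing. The amacrine cell markers therefore did not move as 1 group. Horizontal cells, retinal interneurons that also carry neurofilaments, had 4 tested markers with 0 DEGs in any comparison, and their defining gene Lhx1 was at 0 in all 9 libraries. Horizontal cell markers summed to 97.9 to 133 scaled FPKM in Control, 97.9 to 107 with Mild IOP and 123 to 143 with Moderate IOP. Photoreceptor markers summed to 453 to 524 scaled FPKM in Control, 328 to 347 with Mild IOP and 315 to 345 with Moderate IOP, and Sag, rod arrestin, fell in both IOP groups against Control. Of 4 tested markers of Muller cells, the radial glia of the retina, Rlbp1 rose in Moderate IOP against Control from 4.46 ± 0.156 to 14.5 ± 6.50 scaled FPKM (SD, n = 3, FDR = 0.068 by limma), and Glul was higher in Moderate IOP than in Mild IOP (0.96 on the Log2 scale, FDR = 0.012). In any comparison 0 of 5 tested bipolar cell markers passed. The part of these shifts in the results for the neurofilament genes was not tested.

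Scaling every library by the RGC markers expressed the same values relative to them. The median over all genes then moved to 0.23 on the Log2 scale for Mild IOP against Control, -0.28 for Moderate IOP against Control and -0.52 for Moderate IOP against Mild IOP. Relative to the RGC markers, Nefl remained higher in Moderate IOP than in Control (0.30, FDR = 0.096 by limma), Nefm was at 0.16 (FDR = 0.51), Prph at 0.52 (FDR = 0.41), Nefh at -0.02 (FDR = 0.96) and Ina at -0.29 (FDR = 0.12). Of 4 RGC subtype markers, Spp1, a marker of alpha RGCs, was the only one to pass in Moderate IOP against Control, where it rose from 13.2 ± 2.92 to 28.8 ± 8.68 scaled FPKM with scaling over all genes (SD, n = 3, FDR = 0.068 by limma). Kcng4, another alpha RGC marker, named after its values were seen, was at -0.23 over Control and -0.66 over Mild IOP without passing. The median of the 4 was 0.11 over Control and -0.18 over Mild IOP.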

How the data were processed

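RGCs were purified from retinas of Control, Mild IOP and Moderate IOP eyes, and poly(A)-primed SMART-seq v4 libraries without strand marking were sequenced from 1 RNA pool per group, split into 3. The authors aligned reads to mm10 (bowtie2 in the methods, TopHat2 in the submitters' processing notes) and estimated FPKM with Cufflinks. The deposited FPKM are given per gene locus and library, with confidence bounds and a mark for failed estimates, and no fragment totals. Fragments behind a value were derived here as (2 × FPKM / (upper bound − FPKM)) squared, which is too low for abundant genes, and cover counting error only.

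Where a symbol had several loci their FPKM were added (24487 loci, 23997 symbols). Libraries were scaled by median of ratios, genes with a mean of at least 0.5 scaled FPKM and no failed estimate (13043) were kept, and log2(scaled FPKM + 1) was fitted with limma 3.58.1 in R 4.3.3 over all 9 libraries, 1 mean per group, with a variance trend. Benjamini-Hochberg FDR was taken over all tested genes within a comparison, and a DEG had an FDR below 0.1, with counts at an added fold-change of 1.5, which the methods also require, given beside it. Two-sided tests were used. Ratios to Nefl were tested by exact permutation of the between-group sum of squares. The fit was also run on simulated data with noise set to the spread between libraries of a pool. That noise holds no differences between animals, and the outcome is not reported here. Sequences and transcripts came from GENCODE M21 on mm10.

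Groups and replicate numbers came from the sample titles. The 5 genes and all gene lists were chosen with earlier results of these data known. Named genes were the 5 members, list genes with an FDR below 0.1 in any comparison, the 2 most abundant genes of a list, and the 5 genes with the highest r to each member. Nt5c2 was named for its overlap with Ina. Some items that this rule names are not reported here. Alternatives were other scalings, a pseudocount of 0.1, no filter or a minimum of 5, variance from 2 groups only, a replicate block, failed estimates kept, the highest locus only, no variance trend, and leaving out each library. The labels and methods name no sequencing batch.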

Additional observations from a re-analysis of the deposited data

How the results depend on the processing

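Nefl in Moderate IOP against Control was past the threshold in all 20 alternatives, with Log2 fold-changes of 0.30 to 0.67. Scaling by the RGC markers gave 17, 2180 and 6061 DEGs among all genes in Mild IOP against Control, Moderate IOP against Control and Moderate IOP against Mild IOP, where 52, 240 and 1324 were found otherwise. It left 1 of the 5 genes called in Moderate IOP against Mild IOP, and that was Ina at -0.48, lower. Of all 13075 genes tested with this scaling, 5833 were called lower in that comparison, and the median over all genes was -0.52. In the same comparison Nefl went to -0.09, Nefh to -0.24 and Prph to -0.05, and in Moderate IOP against Control Nefh went to -0.02 and Ina to -0.29. In Mild IOP against Control it gave 0.15 for Nefm, 0.22 for Nefh and 0.20 for Ina. In that comparison Nefh was also 0.01 without scaling, 0.05 with upper-quartile scaling, 0.02 without Mild IOP replicate 2 and between -0.08 and 0.05 over all 9 fits without 1 library, and Ina was 0.02 with upper-quartile scaling. The cause was not tested.

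Moderate IOP against Control called 2 of the 5 genes (Nefl and Nefm) with no filter on low values or a minimum of 5, which left Prph untested. DEGs among all genes in Mild IOP against Control numbered 28 with upper-quartile scaling, 24 with no filter, 85 with a minimum of 5, 11 with variance from the compared groups only and 15 without the variance trend. In Moderate IOP against Control the last 2 settings gave 134 and 144, and in Moderate IOP against Mild IOP no trend gave 839. Unadjusted p-values under 0.05 numbered 1324 genes in Mild IOP against Control, and 0 of the 5 members.

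Leaving out 1 library at a time gave 14 to 172, 61 to 271 and 518 to 1362 DEGs in the 3 comparisons, 0, 1 to 2 and 2 of the 5 genes, and Log2 differences between Moderate IOP and Control of -0.62 to -0.58 for Ina to Nefl, -0.23 to -0.05 for Nefm to Nefl, -0.58 to -0.14 for Nefh to Nefl and 0.06 to 0.88 for Prph to Nefl.

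Replicate numbers did not pair the libraries, since deviations of same-numbered libraries from their group means correlated at 0.012 on average (-0.005 to 0.044) and 3 of 9 libraries correlated best with their own number. With the replicate block, DEGs numbered 25 in Mild IOP against Control and 135 in Moderate IOP against Control, the calls for the 5 genes were 0, 1 and 2, and Ina to Nefl kept -0.59 with an adjusted p of 0.11, the smallest this permutation allows.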
